A study of Homo sapiens with 12 samples.

Results

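A set of 8 transcription regulators of kidney development was followed in G401 cells: WT1, PAX2, PAX8, SIX2, EYA1, OSR1, SALL1 and LHX1. They were chosen by name, as regulators of the nephron progenitor and the early kidney, because G401 was derived from a kidney tumour. Of the 8, 7 were matched among 57820 gene identifiers, and LHX1 was not analysed here. G401 is an established human malignant rhabdoid tumour line with the genotype SMARCB1(-/-), so it makes none of this core subunit of the SWI/SNF chromatin remodelling complexes. All 12 libraries carry that genotype and an induction by doxycycline, which drove GFP, the control protein, or SMARCB1. Both states then received, for 24 h, either DMSO alone or dBRD9-A, a degrader of BRD9, which is a subunit of the non-canonical SWI/SNF complex. The 4 groups (GFP with DMSO, GFP with dBRD9-A, SMARCB1 with DMSO, SMARCB1 with dBRD9-A) had 3 libraries each. The comparisons ask how restoring SMARCB1, and removing BRD9 in each state, affected these genes. The model is 1 tumour line with a protein returned by an inducible construct, and nothing says whether the replicates were separate cultures, so p-values measure only the spread between these libraries.

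In the fetal kidney, OSR1 marks the intermediate mesoderm, the tissue from which the kidney forms. SIX2, EYA1, SALL1 and WT1 act in the cap mesenchyme, where SIX2 keeps nephron progenitors from differentiating and EYA1 is a co-activator that binds SIX2 and its relatives. PAX2 works in both the cap mesenchyme and the ureteric bud, PAX8 and LHX1 in the renal vesicle as it turns into epithelium, and WT1 later in the podocyte. PAX2 and PAX8 are near relatives with overlapping roles, and both are used as markers of tumours of renal epithelial origin.

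The promoter sequences of the members with an entry in the RefSeq table (GRCh38.p14) show what lies upstream of the 1 member with clear counts, PAX2, and of 2 that had few or none. Each window is the 250 bases before an annotated start, 5′ to 3′ on the gene's strand, with every CG dinucleotide in capitals. The PAX2 windows lie at chr10:100735146-100735395 and chr10:100745332-100745581 on the plus strand, the PAX8 window at chr2:113278922-113279171 and the SIX2 window at chr2:45009453-45009702, both on the minus strand.
PAX2, upstream start: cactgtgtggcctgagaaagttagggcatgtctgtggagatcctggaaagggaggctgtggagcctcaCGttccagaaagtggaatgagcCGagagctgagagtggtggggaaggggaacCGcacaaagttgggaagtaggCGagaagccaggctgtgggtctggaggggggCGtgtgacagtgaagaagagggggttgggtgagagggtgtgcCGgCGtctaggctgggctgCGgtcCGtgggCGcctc
PAX2, downstream start: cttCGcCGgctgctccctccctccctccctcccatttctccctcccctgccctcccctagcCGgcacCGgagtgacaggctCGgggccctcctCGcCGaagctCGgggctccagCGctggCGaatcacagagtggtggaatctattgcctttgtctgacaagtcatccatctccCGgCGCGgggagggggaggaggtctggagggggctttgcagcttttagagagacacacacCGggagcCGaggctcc
PAX8: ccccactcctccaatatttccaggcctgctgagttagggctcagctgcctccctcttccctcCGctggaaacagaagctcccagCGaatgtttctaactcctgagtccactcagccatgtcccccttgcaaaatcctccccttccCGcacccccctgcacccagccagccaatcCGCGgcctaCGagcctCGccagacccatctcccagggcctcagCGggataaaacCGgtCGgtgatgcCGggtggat
SIX2: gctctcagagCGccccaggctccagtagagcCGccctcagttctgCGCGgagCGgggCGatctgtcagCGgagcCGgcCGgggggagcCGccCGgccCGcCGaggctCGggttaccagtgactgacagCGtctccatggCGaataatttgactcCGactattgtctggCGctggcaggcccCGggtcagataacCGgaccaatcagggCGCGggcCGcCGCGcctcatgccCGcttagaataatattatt

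The motif searched was CG, which reads the same on both strands. SIX2, at 0 counts in all 12 libraries, held 26 CG, a number that 19.6% of the 35116 windows of this length in the table reached or passed. The upstream PAX2 window held 10 and the downstream one 15, reached or passed by 52.2% and 42.9% of windows, and the PAX8 window held 11, reached or passed by 50.3%. The 4 windows of WT1 held between 3 and 19. The PAX2 windows thus held fewer CG than that of the silent SIX2 and lay within the range of the equally silent WT1. Neither methylation nor chromatin was measured here.

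Libraries held between 34.97 and 58.54 megacounts, with 0.9634% to 1.302% from spike-in transcripts. SMARCB1 itself read 0 to 1 counts in GFP cells with DMSO and 1 to 2 with dBRD9-A, against 69021 to 110893 and 53033 to 71966 in SMARCB1 cells, so every library matched its label for the induced gene. The induced transcript was itself lower with dBRD9-A in SMARCB1 cells, at 1310 ± 27 against 1880 ± 59.4 CPM (counts scaled to library size, SD, n = 3). It fell by 0.52 on the log2 scale (adjusted p = 4.95e-08 by edgeR) and by 0.66 under spike-in scaling, and its part in the SMARCB1 comparisons with dBRD9-A was not tested. BRD9 transcript, which need not follow the protein, read 37.2 to 41.9 CPM in the GFP libraries and 44.9 to 50.4 CPM in the SMARCB1 ones. The rhabdoid markers VIM, KRT8 and KRT18 were abundant, and VIM (vimentin, a mesenchymal filament) averaged 1320 ± 26.4 CPM (SD, n = 3) in GFP cells with DMSO. Over all genes the first principal component, 85.1% of the variance, separated SMARCB1 from GFP libraries.

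Most of these kidney regulators were silent in G401 whatever the state or treatment. Silent here means at most 3 counts in every library, a floor worth 0.0516 to 0.0847 CPM. Of the 7 matched members, 5 met it: WT1, SIX2, EYA1, OSR1 and SALL1. The same was true of 5096 of the 19263 protein-coding genes matched to the annotation, or 26.5%. The other members were PAX2, the 1 member with enough counts to test, and PAX8.

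The progenitor regulators gave almost no signal. SIX2, EYA1 and WT1 read 0 in all 12 libraries, which allows at most 0.0055 CPM over the 545.4 megacounts of the series. Such a run of zeros was shared by 14.6% of the protein-coding genes. OSR1, the intermediate mesoderm factor, gave 5 counts in all: 2 in SMARCB1 DMSO replicate 3, and 1 each in GFP dBRD9-A replicate 2 and SMARCB1 dBRD9-A replicates 1 and 2. SALL1, a zinc-finger repressor of the cap mesenchyme, gave 1 count, in SMARCB1 DMSO replicate 1. These counts lie under the floor, so no order of the groups can be read from them.

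**Figure D1:**
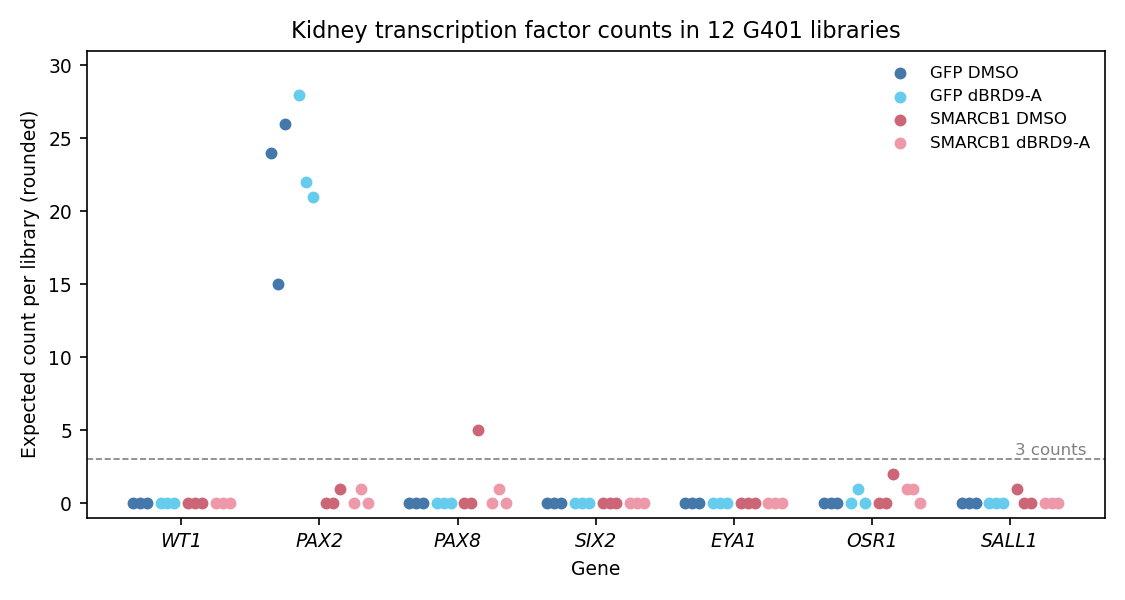
Expected counts, rounded, of the 7 matched kidney regulators (x axis) in each of the 12 libraries (points, coloured by group), with a dashed line at the floor of 3 counts. PAX2 lies at 15 to 28 counts in the 6 GFP libraries and at 0 or 1 in the 6 SMARCB1 libraries, and the only other point above the line is PAX8 at 5.

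PAX8, the regulator of early nephron epithelium, was at 0 in all 6 GFP libraries. It gave 5 counts in SMARCB1 DMSO replicate 3 and 0 in the other two of that group, and 1 count in SMARCB1 dBRD9-A replicate 2. Replicate 3 was the deepest SMARCB1 DMSO library, at 58.36 megacounts, while GFP DMSO replicates 1 and 3, at 56.14 and 58.54, were among the libraries at 0. The gene did not pass the filter on low counts and was not tested, and a difference that rests on 1 library is below what this depth can show.

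Antisense partners of the members were as low. WT1-AS, which overlaps WT1 on the opposite strand of chromosome 11, was at 0 in every library. PAX8-AS1, which overlaps PAX8 on chromosome 2, never passed 2 counts: it gave 2 and 1 in SMARCB1 DMSO replicates 2 and 3, and 1 each in SMARCB1 dBRD9-A replicates 1 and 2. The library kit keeps strand, but whether the counting used it is not given in the sources used here, so the few PAX8 and PAX8-AS1 counts cannot be told apart. PAX2 on chromosome 10, and SIX2 and OSR1 on chromosome 2, overlap no other gene in GENCODE 29.

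PAX2 was the exception: transcribed at a low level in the SMARCB1-deficient state and nearly absent from the counts once SMARCB1 was induced. In GFP cells with DMSO the 3 libraries gave 24, 15 and 26 counts, or 0.426, 0.364 and 0.449 CPM. SMARCB1 cells with DMSO gave 0, 0 and 1. All 3 GFP libraries lay above all 3 SMARCB1 libraries, but how many of all genes separate in this way was not counted. Pooled over libraries and scaled for depth, 65 counts against 1 give a ratio of 56.9, with an exact 95% interval of 9.86 to 2280 that covers counting error only. The adjusted p was 4.7e-07 (edgeR's quasi-likelihood test, Benjamini-Hochberg over 15750 genes). Of all genes tested in that comparison 65% were called, 33.5% higher and 31.6% lower in SMARCB1 cells, so a call alone is the common outcome there.

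With dBRD9-A the same contrast held. GFP cells gave 28, 22 and 21 counts, at 0.655, 0.579 and 0.593 CPM, and SMARCB1 cells gave 0, 1 and 0. Again all GFP libraries lay above all SMARCB1 libraries, with the same limit. The pooled counts, 71 against 1, give a ratio of 84 (exact 95% interval 14.6 to 3360, counting error only) and an adjusted p of 7.44e-08 by the same edgeR test, in a comparison where 63.3% of genes were called, 33% higher and 30.4% lower. PAX2 passed the filter only through its GFP libraries, so it could enter this test and the one in DMSO only as a gene high in GFP cells. In bulk RNA, fewer cells with PAX2 and less PAX2 RNA per cell cannot be told apart.

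PAX2 was a weakly transcribed gene in GFP cells. Per kilobase of merged exon it averaged 0.0662 ± 0.00711 CPM in GFP cells with DMSO (SD, n = 3), above only 5.68% of the 15257 tested genes with a length, whose median was 3.62 CPM per kb, and above 11.6% of them without length correction. With dBRD9-A, where it was highest, it lay above 7.97%, or 15.7% without length correction. Its exons total 6243 bases. The order of the measured levels was GFP with dBRD9-A, at 0.0976 ± 0.00643 CPM per kb (SD, n = 3), then GFP with DMSO, then both SMARCB1 groups at or under the floor.

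The PAX2 difference between dBRD9-A and DMSO in GFP cells did not pass the test. All 3 dBRD9-A libraries (0.579 to 0.655 CPM) lay above all 3 DMSO libraries (0.364 to 0.449 CPM). How many of all genes separate so was not counted here either. The log2 fold change was 0.55 (SE 0.28, 95% interval -0.04 to 1.14), and its adjusted p by edgeR was 0.215 (unadjusted 0.0658), so it was not called, beside 15.9% of all genes called in that comparison, 7.43% higher and 8.47% lower. Scaling by spike-ins raised it to 0.91 with an adjusted p of 0.0117, in a fit that also raised the median of all genes by 0.36. Spike-ins took 1.265% to 1.302% of counts in these DMSO libraries and 0.9634% to 1.06% in the dBRD9-A ones, and what lies behind that difference was not tested. In SMARCB1 cells both treatments were at or under the floor and no fold is given. No member was called there, where 1.93% of all genes were (0.679% higher, 1.25% lower). Nor was any called by edgeR in the test of the difference between the 2 responses, where 3.8% of all genes were (2.15% higher and 1.65% lower in SMARCB1 than in GFP cells).

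The families of the silent members were not silent as a whole. Among 25 relatives, 14 were tested and 11 stayed at or under the floor in all libraries, SIX3, SIX6, EYA4, SALL3 and LHX9 at 0 throughout. The well-measured ones below were picked after their values were seen, apart from PAX6, LHX3, LHX6 and EGR1. SIX4 stood at 8.32 ± 0.509 CPM per kb in GFP cells with DMSO while SIX2 was at 0. EYA3 stood at 6.16 ± 0.31 CPM per kb where EYA1 had none. OSR2, the near relative of OSR1, reached 2.3 ± 0.124 CPM per kb, and SALL4, a stem-cell factor of the SALL1 family, 23.6 ± 0.496 (each SD, n = 3). In each of these families, then, a relative was transcribed in G401 where the kidney member was not.

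**Figure D2:**
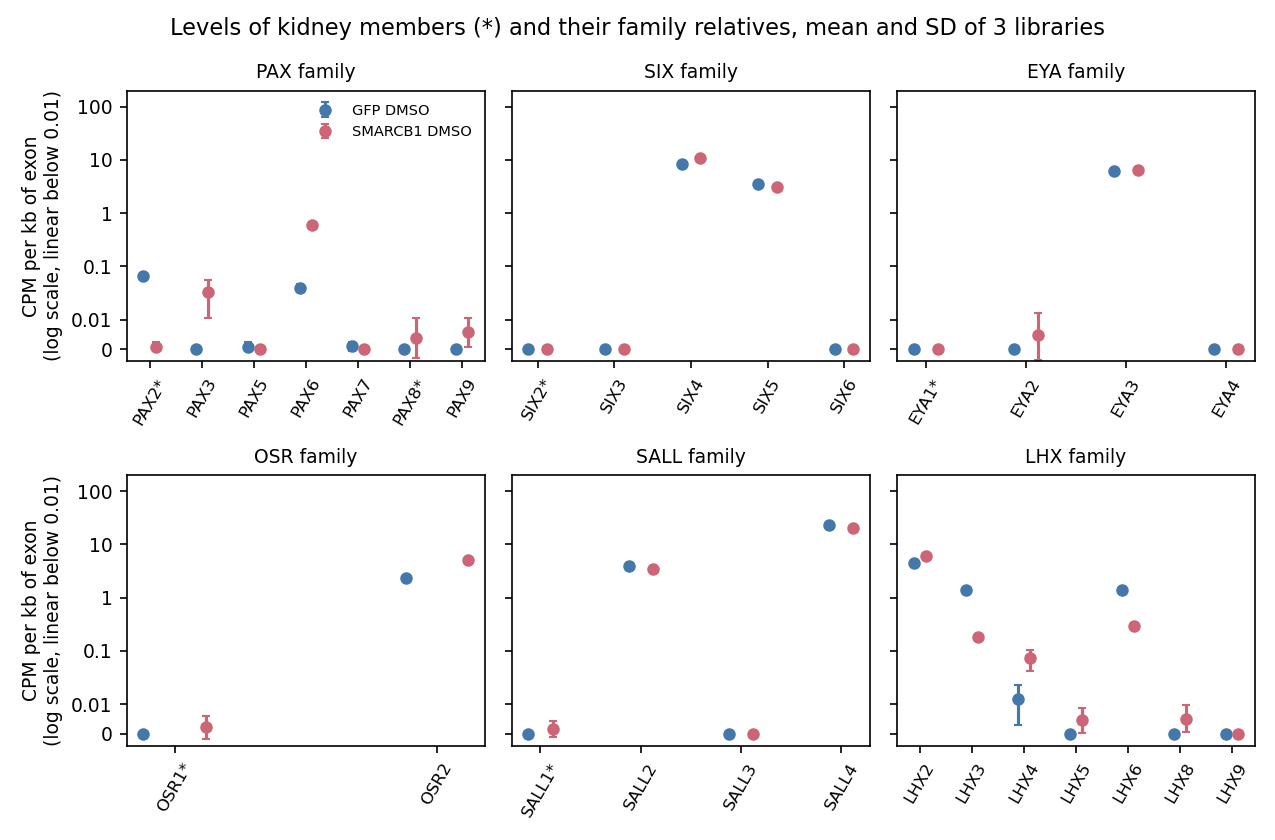
Levels in CPM per kb of exon (y axis, log scale that is linear below 0.01) of the kidney regulators (starred) and of relatives by family, as mean and SD of 3 libraries for GFP and SMARCB1 cells with DMSO. SIX4, EYA3, OSR2 and SALL4 lie at 2.3 or above while SIX2, EYA1, OSR1 and SALL1 lie near 0, and PAX6 and PAX2 move in opposite directions.

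Induction of SMARCB1 did not bring up the silent members, but it moved several of their relatives. In DMSO, 13 of the 14 tested relatives were called, 8 higher and 5 lower, beside 65% of all genes (33.5% higher, 31.6% lower). PAX3 and LHX4 passed the filter only through SMARCB1 libraries and so had to be higher. Of the 12 measured in both states 6 rose and 5 fell, with a median log2 change of 0.22. PAX6, a regulator of eye and neural development, went the opposite way to PAX2: 0.0399 ± 0.00582 CPM per kb in GFP cells and 0.587 ± 0.0244 in SMARCB1 cells (SD, n = 3). Its log2 fold change was 3.89 (SE 0.1, adjusted p = 4.33e-16 by edgeR), and 3.75 with dBRD9-A. OSR2 rose by 1.18 on the log2 scale (SE 0.08), to 5.21 ± 0.493 CPM per kb. SIX4 rose less, by 0.37, to 10.8 ± 0.259 CPM per kb, and this rise was lost with dBRD9-A under spike-in scaling (-0.02, adjusted p = 0.849 by edgeR).

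Other relatives went down. LHX3 and LHX6, homeodomain factors of pituitary and forebrain development, had log2 fold changes of -2.96 (SE 0.14) and -2.24 (SE 0.11). SALL4 fell by 0.2, SIX5 by 0.2 and SALL2 by 0.19, but under spike-in scaling, which shifted the median of all genes by 0.17, they stood at -0.03, -0.03 and -0.02 and were not called. EYA3 differed by 0.07 with an adjusted p of 0.168 by edgeR and was not called, while spike-in scaling put it at 0.24 (adjusted p = 0.0074). EGR1, an immediate-early zinc-finger factor whose fingers resemble those of WT1, rose by 2.06 in DMSO and by 2.57 with dBRD9-A. PAX3 was at 0 in all 6 GFP libraries and at 4 to 16 counts in SMARCB1 cells with DMSO.

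The wider kidney program was described with 9 lists: these regulators, their relatives, and genes of nephron progenitors, nephrogenic signals, renal vesicle and tubule factors, podocytes, renal stroma, the ureteric bud and collecting duct, and mature tubule. Of 137 measured genes, 49 were silent, 22 rose above the floor in some library without passing the filter, and 66 were tested. Induction of SMARCB1 in DMSO raised 35 of the 66 and lowered 24, and scaled to spike-ins 38 were higher and 18 lower. Of the 66, 16 reached the filter's level in 3 libraries of the SMARCB1 state only and 5 of the GFP state only, so their entry favoured genes that differ. It did not fix a call, since WNT4, which entered through GFP libraries, was not called (-0.69, adjusted p = 0.0836 by edgeR). Among the 45 measured in both states 19 rose and 20 fell, with a median log2 change of -0.04 against -0.01 for all genes of that kind. Of these 86.7% were called, beside 65.2% of all genes measured in both states. Medians below are over the genes of a list measured in both states. With dBRD9-A, 34 of the 66 were higher and 24 lower, and scaled to spike-ins 24 were higher and 32 lower. The lists were chosen with earlier results known, and were not tested as sets.

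**Figure D3:**
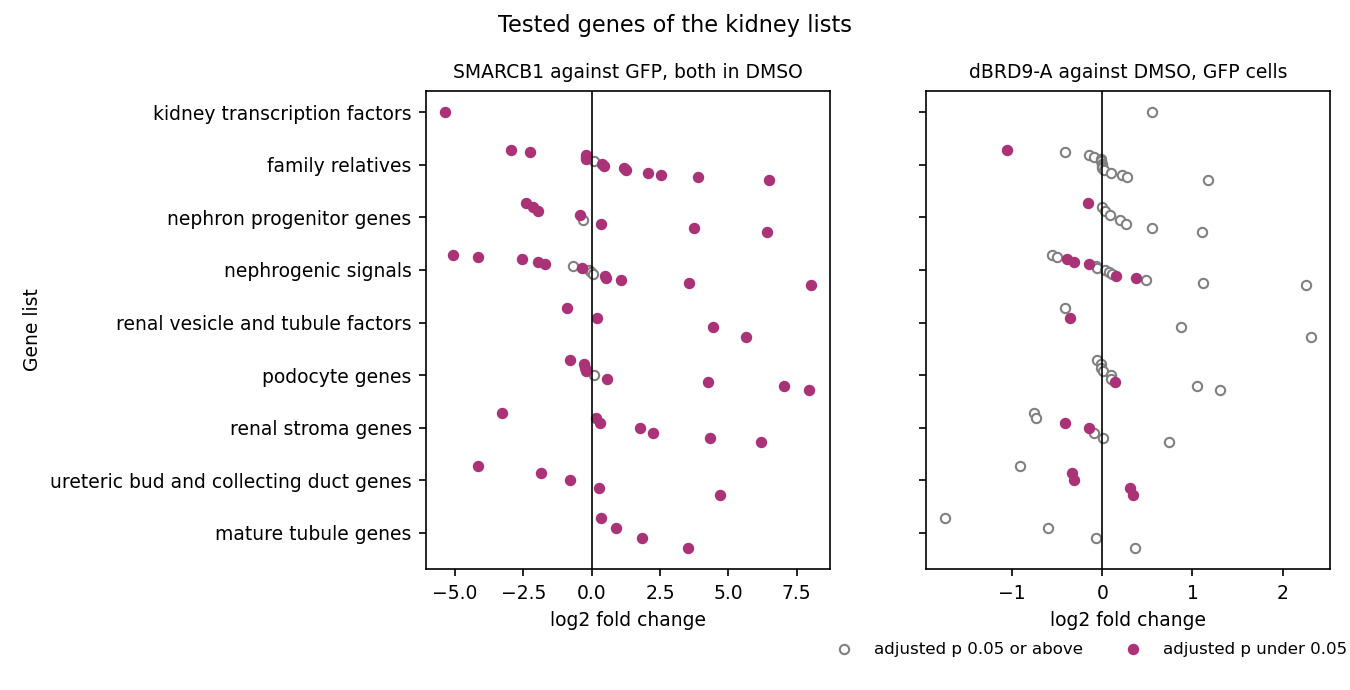
Log2 fold changes (x axis) of the 66 tested genes of the kidney lists (rows, a gene in 2 lists shown in both) for SMARCB1 against GFP in DMSO (left) and dBRD9-A against DMSO in GFP cells (right), filled where the adjusted p was under 0.05. Filled points lie on both sides of 0 in all lists on the left except PAX2 alone and the 4 mature tubule genes, and 14 genes are filled on the right. The horizontal scales of the panels differ.

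Nephron progenitor genes did not move one way with SMARCB1. Of 15 measured, 8 were tested, 3 rose and 4 fell. In the 5 measured in both states 1 rose and 3 fell, with a median of -0.42. CITED1, a transcriptional co-regulator that marks the uncommitted cap mesenchyme, went from 3.33 ± 0.225 CPM in GFP cells to 0.614 ± 0.206 in SMARCB1 cells with DMSO (SD, n = 3). It fell by 2.41 on the log2 scale (SE 0.19, adjusted p = 4.33e-09 by edgeR). MEOX1, a mesoderm homeobox gene also seen in nephron progenitors, fell from 73.3 ± 3.38 to 18.4 ± 2.03 CPM. HOXA11, a patterning gene of the kidney mesenchyme, fell by 0.42, while its relative HOXC11 rose by 0.35, and by 0.32 with dBRD9-A, where spike-in scaling gave -0.01. HOXD11, and GDNF, the signal by which the mesenchyme calls in the ureteric bud, were at 0 throughout.

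Among signals of nephron formation, BMP7 and WNT11 fell steeply and JAG1 rose. Of 23 measured, 15 were tested, 5 rose and 6 fell. In the 10 measured in both states 3 rose and 4 fell, with a median of -0.06. BMP7, which sustains nephron progenitors, averaged 96.3 ± 3.36 CPM in GFP cells with DMSO and 2.86 ± 0.252 in SMARCB1 cells (SD, n = 3). It fell by 5.08 on the log2 scale (SE 0.05, adjusted p = 1.48e-21 by edgeR) and fell by 4.95 with dBRD9-A. WNT11, a signal of the ureteric bud tips, fell from 32.3 ± 1.66 to 1.77 ± 0.336 CPM. The progenitor growth factor FGF20 fell by 1.96, and the FGF receptor FGFR2 by 0.35. JAG1, a Notch ligand of the renal vesicle, had 0 to 1 counts in GFP cells with DMSO and 91 to 116 in SMARCB1 cells. It passed the filter only through SMARCB1 libraries and so had to be higher. Its pooled ratio was 365 (exact 95% interval 65 to 14400, counting error only).

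Few renal vesicle and tubule factors had enough counts to test. Of 17 measured, 8 were silent, 5 rose above the floor without passing the filter, as PAX8 did, and 4 were tested, 3 higher and 1 lower. HEY1 and HES1, Notch targets and 2 of the 3, passed the filter only through SMARCB1 libraries and so had to be higher. FOXJ1, a regulator of motile cilia, fell by 0.9. TFAP2A rose by 0.2 with an adjusted p of 0.0472, a call that was lost with DESeq2 (0.0792). It was also lost in 7 of the 12 fits that each left out a library: any GFP DMSO library, GFP dBRD9-A replicate 1, SMARCB1 DMSO replicate 1 or 3, or SMARCB1 dBRD9-A replicate 1. Podocyte genes, which WT1 governs in the glomerulus, gave 9 tested of 15, with 4 higher and 4 lower, and of the 7 measured in both states 2 rose and 4 fell, with a median of -0.21. That balance depends on the scaling. Scaled to spike-ins, the falls of FOXC1, PLCE1 and VEGFA were lost (-0.07, -0.12 and -0.04) and that of LMX1B was kept (-0.62). CD2AP, not called in the main fit, was then called higher (0.25, adjusted p = 0.00228 by edgeR). FOXC2 and FOXL1, forkhead factors, passed the filter only through SMARCB1 libraries and so had to be higher. They had at most 3 and 1 counts in GFP cells with DMSO and 107 to 176 and 209 to 297 in SMARCB1 cells. Their pooled ratios were 149 (exact 95% interval 50.7 to 727) and 277 (94.4 to 1350), with intervals for counting error only. PODXL, a surface sialomucin of podocytes and other cells, rose by 4.24, from 0.536 to 10.3 CPM. TCF21, a transcription factor of podocytes, was at 0 in every library.

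Among stromal genes PDGFRA fell steeply. Of 12 measured, 7 were tested, 6 higher and 1 lower. FOXD1, MEIS1, NTN1 and POSTN, 4 of the 6, passed the filter only through SMARCB1 libraries and so had to be higher, and the 3 measured in both states had a median of 0.16. PDGFRA, a mesenchymal growth factor receptor, was the 1 that fell, from 97.5 ± 0.798 to 9.98 ± 0.492 CPM, while PDGFRB rose by 0.16 and MEIS2 by 0.32 (adjusted p = 0.0045 and 8.44e-08 by edgeR). Of 13 ureteric bud and collecting duct genes, 5 were tested, 2 higher and 3 lower. AQP3 passed only through SMARCB1 libraries, and the 4 measured in both states had a median of -1.32. SCNN1A, a sodium channel subunit, fell by 1.84 and GATA2 by 0.8. Mature tubule genes were silent in 9 of 14 cases, UMOD at 0 throughout. The 4 tested were higher, beside 33.5% of all genes, but CDH1 passed the filter only through SMARCB1 libraries and so had to be. The other 3 had a median of 0.89, which was the value of AQP1, called only narrowly (SE 0.38, adjusted p = 0.048 by edgeR). Among these 3, GGT1, a brush border enzyme, rose by 0.35. All 14 genes of the list summed to 14.6 to 16.4 CPM in GFP cells with DMSO and 20.2 to 22 CPM in SMARCB1 cells. Most of that sum was GGT1, which averaged 14.7 and 18.7 CPM.

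Markers of other cell types were checked beside these changes. The 4 immune markers stayed at or under the floor everywhere, PTPRC and CD3E at 0. The 3 measured endothelial markers summed to 0.0173 to 0.121 CPM in GFP cells with DMSO and 0.681 to 1.07 CPM in SMARCB1 cells, with KDR at 0. VWF, at 1 to 5 counts in these GFP libraries and 22 to 50 in the SMARCB1 ones, was 3.96 higher on the log2 scale. It passed the filter only through SMARCB1 libraries and so had to be higher. The part of these few counts in the list changes was not tested. Of the 6 rhabdoid markers 5 were tested: besides the induced SMARCB1, VIM rose by 0.81 and CD99 by 0.95, while KRT18 fell by 0.58 and KRT8 by 0.28, the last of which was lost under spike-in scaling (-0.11, adjusted p = 0.118 by edgeR).

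dBRD9-A moved fewer of these genes, and by less. In GFP cells 14 of the 66 tested kidney genes were called, 5 higher and 9 lower, or 21.2% beside 15.9% of all genes, with a median of 0. Scaled to spike-ins, 37 were higher and 1 lower, so the direction of this list depends on the scaling. LHX6 was the 1 relative called, from 8 to 3.82 CPM, a fall of 1.06 on the log2 scale (SE 0.1, adjusted p = 7.73e-07 by edgeR), and it fell by 0.71 under spike-in scaling. FGF20 rose by 0.37, GATA2 by 0.34 and CD2AP, a podocyte adaptor protein, by 0.14. These 3 also rose under spike-in scaling, but the CD2AP call was lost without GFP DMSO replicate 1 or 3 or GFP dBRD9-A replicate 1 or 2.

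The other named falls in GFP cells were lost or reversed under spike-in scaling. FGFR2 fell by 0.39, PDGFRB by 0.41, TFAP2A by 0.36, SCNN1A by 0.34, WNT11 by 0.32, HOXA11 by 0.16 and PDGFRA by 0.15 in the edgeR fit. The TFAP2A call was lost without GFP DMSO replicate 3 or GFP dBRD9-A replicate 1 or 2, and HOXA11 kept its call in only 3 of the 12 fits that each left out a library. Scaled to spike-ins, WNT11, HOXA11, TFAP2A, PDGFRA and SCNN1A changed sign, FGFR2 stood at -0.03 and PDGFRB at -0.05. In SMARCB1 cells only FGFR2 and PDGFRA were called among the 66, 3.03% beside 1.93% of all genes. FGFR2 fell by 0.19 (adjusted p = 0.00351) and PDGFRA by 0.3 (adjusted p = 0.00309), both by edgeR. BMP7, CITED1, MEOX1, PAX6, SIX4, EYA3, OSR2 and SALL4 were not called with dBRD9-A in either state. Under spike-in scaling, with the median of all genes 0.36 higher, each of these 8 was called higher in GFP cells, from 0.35 for SALL4 and OSR2 to 0.62 for CITED1.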

How the data were processed

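RNA was sequenced from 12 G401 libraries, 3 in each of 4 groups. The authors deposited expected counts per gene, in tables named for RSEM, which shares reads between genes they could come from, so copies and overlapping genes can trade counts. The submitters' processing notes name STAR, RSEM 1.3.1, DESeq2, GRCh37 and hg19, without role or order. The kit, per the labels' protocols, was TruSeq Stranded mRNA. Expected counts were rounded (2423 rows held fractions) and 40 spike-in identifiers were kept apart. Symbols came from a name table for 51996 of 57820 identifiers, and exon lengths from GENCODE 29 (GRCh38) for 52338, so levels per length mix annotation versions.

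Genes passing filterByExpr at a minimum count of 10 (15750) were fitted over all 12 libraries with edgeR 4.0.16 in R 4.3.3 (TMM scaling, quasi-likelihood test, Benjamini-Hochberg adjustment, called at an adjusted p under 0.05). CPM used TMM-scaled totals (factors 0.9765 to 1.016). On simulated counts for SMARCB1 against GFP in DMSO (15534 genes), 85% of genes changed by 1 on the log2 scale were recovered and 96% of those changed by 2, with 4.74% of calls false. Only 100 genes were changed at each size, while 65% of genes were called in the data. The simulated share of false calls therefore need not hold for the real comparison. Alternatives were other scaling (RLE, spike-ins), filters (none, a mean of at least 50 counts), DESeq2 1.42.0, the compared groups only, a replicate block and leaving out each library. Named genes were all members, and per list and contrast the 3 largest called changes among genes with a mean of at least 50 counts. For members with that mean, the genes of most alike pattern were to be named, and no member reached it. Genes named outside these rules, such as list genes at 0, were picked after their values were seen. Some list genes are counted but not reported by name here. The members and lists were chosen with earlier results of these data known. The matched replicate numbers were not read as pairs of libraries (in the closing section).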

Additional observations from a re-analysis of the deposited data

Results flagged for a closer look

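For 5 of the 66 tested kidney-list genes the response to dBRD9-A differed between SMARCB1 and GFP cells by edgeR's interaction test, in which 3.8% of all genes were called. LHX6 fell by 1.06 on the log2 scale in GFP cells and stood at -0.13 in SMARCB1 cells, a difference of 0.94 (adjusted p = 0.00321) that was 0.43 with an adjusted p of 0.0508 under spike-in scaling. GATA2 rose by 0.34 in GFP cells and stood at -0.03 in SMARCB1 cells, a difference of -0.37 (adjusted p = 0.00401) that was -0.87 under spike-in scaling.

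PDGFRB fell by 0.41 in GFP cells and stood at -0.1 in SMARCB1 cells, a difference of 0.31 (adjusted p = 0.01 by edgeR), and FGFR2 fell by 0.39 and 0.19, a difference of 0.2 (adjusted p = 0.0142). Both differences changed sign under spike-in scaling, to -0.18 (adjusted p = 0.124) and -0.29 (adjusted p = 0.00796). The FGFR2 call was also lost in 3 of the 12 fits that each left out a library: GFP DMSO replicate 1, GFP dBRD9-A replicate 1 or SMARCB1 dBRD9-A replicate 1. BMP4, named after its values were seen, stood at 0.15 in GFP cells and -0.06 in SMARCB1 cells, a difference of -0.21 (adjusted p = 0.00266 by edgeR) that was -0.71 under spike-in scaling. No kidney regulator of the set of 8 was called in this test.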

How the results depend on the processing

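PAX2 was called lower in SMARCB1 cells, in DMSO and in dBRD9-A, under every alternative in which it was fitted, with fitted log2 changes of -7.21 to -5 and -7.77 to -5.53 when each library was left out, values that depend on the prior count. Fits that keep the filter on low counts could hold PAX2 only as a gene high in GFP cells, so their agreement adds little. The edgeR fit with no filter gave -5.39 in DMSO and -5.94 in dBRD9-A. With a mean of at least 50 counts required, 0 members were called because PAX2 was not in the fit. Without length correction PAX2 lay above 11.6% of tested genes in GFP DMSO. For PAX2 in GFP cells, dBRD9-A against DMSO ranged over 0.48 to 0.62 (adjusted p = 0.216 to 0.416 by edgeR) on leaving out libraries, and was 0.91 (adjusted p = 0.0117) under spike-in scaling, the 1 alternative that called it (1 member).

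Spike-in scaling moved the median of all genes by 0.17 for SMARCB1 in DMSO, -0.32 in dBRD9-A, 0.36 for dBRD9-A in GFP cells, -0.14 in SMARCB1 cells and -0.49 for the interaction. It raised the calls to 11310 genes (11083 higher) and 38 kidney genes for dBRD9-A in GFP cells, against 2504 and 14, to 873 and 9 in SMARCB1 cells, against 304 and 2, and to 11270 and 39 for the interaction, against 598 and 5. The share of calls that were higher went from 51.4% to 72.6% for SMARCB1 in DMSO and from 52% to 19.1% in dBRD9-A. Named changes reversed were HOXC11 for SMARCB1 in dBRD9-A (-0.01), HOXA11 (0.19), WNT11 (0.04), TFAP2A (0.01), PDGFRA (0.2) and SCNN1A (0.01) for dBRD9-A in GFP cells, and FGFR2 (-0.29) and PDGFRB (-0.18) for the interaction. Which scaling is nearer the cells' RNA content was not tested.

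For dBRD9-A in SMARCB1 cells, 652 genes were called with no filter, 159 genes and 1 kidney gene from the compared groups only, and 169 to 422 genes and 2 to 4 kidney genes when each library was left out. Beside the 0 members called there, 2006 genes had an unadjusted p under 0.05, and DESeq2 called 349 genes and 0 members. HOXA11 for dBRD9-A in GFP cells kept its call in 3 of the 12 fits that each left out a library. Among named genes, 423 refits without leaving out a library kept the call, 13 lost it and 8 reversed, and on leaving out a library 742 kept it and 26 lost it.

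The replicate block called 10113, 9812, 2233, 254 and 529 genes in the 5 tests, left PAX2 called at adjusted p = 3.02e-06 and 6.4e-07 by edgeR, and lost TFAP2A in DMSO (0.0575). Same-numbered libraries deviated together with correlations of only -0.056 to 0.061, so the numbers were not read as pairs. Such correlations over all genes cannot show that libraries of the same number were handled apart. Depth limits the silent members to the floor of 3 counts, and with 3 libraries a group a PAX2 response of the size seen in GFP cells could not be told from none.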
